A study of Mus musculus with 3 samples.

Results

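The genes described here encode the proteins that neutrophils store in their granules or cytosol, and they were read in cultures of mast cells. The 9 genes are Mpo, Elane and Prtn3 of the azurophil granules, Camp, Lcn2, Ltf and Ngp of the specific granules, and S100a8 and S100a9 of the cytosol. They were chosen by gene name among the non-control spots of each array, and make up 9 of the 31131 genes and 11 of the 39429 probes. Mpo and Camp have 2 probes each, the other 7 genes have 1, and each probe is printed once per array.

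The samples were bone marrow-derived mast cells (BMMCs), which are grown out of marrow progenitors in culture. They came from male, 12-week-old Pafah2-deficient mice on a C57BL/6 background. One culture received a mixture of the ω3 epoxides 17,18-EpETE and 19,20-EpDPE in a ratio of 2 to 3 at 300 nM, one received GW9662, which blocks the nuclear receptor PPAR gamma, at 0.5 µM, and one received DMSO as vehicle, each for 12 h. The vehicle culture is Pafah2-deficient as well, so the arrays hold no wild-type cells. The labels state neither the purity of the cultures nor how many mice each came from.

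There was 1 array per condition, so no value has a replicate, the spread between cultures is unknown and no test was possible. Each array carried 43020 non-control spots, of which 54.6% were well above background with epoxides, 53.3% with GW9662 and 52.3% with vehicle. The arrays are named by the sample to which the scanner file is attached. In the authors' deposited value table, the values listed for the epoxide sample match the scanner file of the GW9662 sample in 100% of values, and the reverse holds too. The labels do not settle this, so each statement on the epoxide array may belong to GW9662, and each on the GW9662 array to the epoxides. The mast cell identity was read from 16 markers, of which 15 were well above background on all 3 arrays, including Kit, the stem cell factor receptor, and Fcer1a, the IgE receptor subunit that holds IgE. The exception was Tpsab1, a tryptase.

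Neutrophils fill their granules in waves as they mature. Azurophil granule proteins are transcribed in promyelocytes, specific granule proteins in the later myelocytes, and the mature cell keeps the proteins after most of these genes have been switched off. Mast cells arise from related marrow progenitors and carry granules with proteases of their own, and RNA of a neutrophil gene in such a culture may come from other marrow cells or from the mast cells themselves, which cannot be told apart here. In bulk RNA, fewer cells of a type and less RNA per cell cannot be told apart.

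The 60-base probes of Mpo, Elane, Lcn2 and Camp carry most of what follows, and stretches of them are shown because probes of the same gene read differently. Sequences and mm9 coordinates are those of the scanner files, 5′ to 3′, and capitals mark an AATAAA hexamer, the usual polyadenylation signal, or bases that differ between the Camp probes. The Mpo probe on row 76 of the array (chr11:87615121-87615180, plus strand) is given whole, and the others as 30 bases. These are the last bases of the Mpo probe on row 279 (chr11:87617840-87617899, plus strand) and of the Elane probe (chr10:79350902-79350961, plus strand), and the first of the Lcn2 probe (chr2:32240199-32240258, minus strand).
Mpo, row 76: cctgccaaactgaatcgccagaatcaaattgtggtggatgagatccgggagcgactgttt
Mpo, row 279: tatttgtacctgaggttcacactAATAAAa
Elane: ttactacAATAAAagcagcctttgttttgt
Lcn2: aaggagcatctggagcctcttcttatttgg
Camp, row 351: cagccAgagTagtaggcctgccttggcctg
Camp, row 506: cagccGgagCagtaggcctgccttggcctg
The hexamer lies near the 3′ end of the row 279 Mpo probe, while the row 76 probe lies upstream on the same strand. The Camp probes overlap by 50 bases, of which 48 match. The differences are A16G and T20C, counted from 1 at the 5′ end of the row 351 probe, which the files place at chr9:109749911-109749970 (minus strand). The row 506 probe, like the probes of Ngp and Prtn3, has no position in the files. Apart from the Camp pair, no 2 member probes shared a run of more than 9 bases, including the neighbouring genes Elane and Prtn3 on chromosome 10 and S100a8 and S100a9 on chromosome 3.

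Values are given as the processed signal, an intensity on the scanner's linear scale, and as a level, which is the log2 signal minus log2 of the 75th percentile of that array. A level of 0 is thus the brightness that 75 of 100 spots lie under. The software marks a spot as well above background or not. Where a signal is not significantly above its local background, a surrogate derived from the noise takes its place. Errors are those the software gives for the spot and cover neither culture, labelling nor hybridisation. With epoxides 4 of the 9 genes were well above background, beside 54.5% of all genes. With GW9662 it was 4 of 9 beside 53.3%, and with vehicle 3 of 9 beside 52.4%. Elane, Camp and Lcn2 passed on every array, and Mpo on the epoxide and GW9662 arrays. Prtn3, Ltf, Ngp, S100a8 and S100a9 passed on none.

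**Figure D1:**
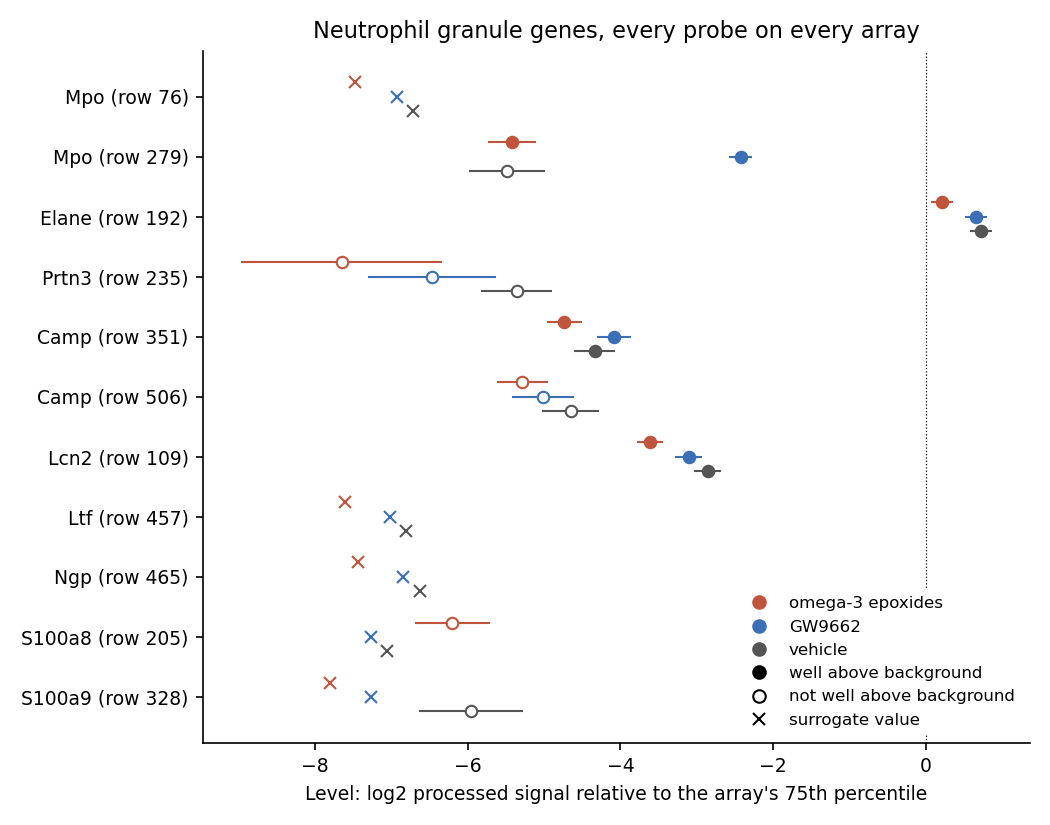
Level of every probe of the 9 neutrophil granule genes on each array (x axis, log2 processed signal over the array's 75th percentile), with 1 line per probe and its array row in brackets. Filled points are well above background, open points are not, crosses are surrogate values and bars are the software's spot error. Elane is the only gene to the right of the dotted line at 0, and the row 279 probe of Mpo is high on the GW9662 array alone.

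Elane encodes neutrophil elastase, a serine protease of the azurophil granule. Its processed signal was 2695 ± 270 with epoxides, 3173 ± 318 with GW9662 and 3169 ± 317 with vehicle. The levels were 0.22, 0.66 and 0.73 in the same order, so all 3 arrays read Elane above their 75th percentile, and the epoxide array read it lowest. The log2 ratio was -0.51 ± 0.20 between epoxides and vehicle, which is 1.42-fold lower, -0.06 ± 0.20 between GW9662 and vehicle and -0.44 ± 0.20 between epoxides and GW9662. The epoxide ratios exceed the spot error, and no replicate shows how far cultures differ.

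Mpo encodes myeloperoxidase, the haem enzyme that makes hypochlorous acid and the defining protein of azurophil granules. The row 279 probe gave a signal of 54.0 ± 11.7 with epoxides, 373 ± 39.5 with GW9662 and 42.8 ± 14.7 with vehicle, or levels of -5.42, -2.42 and -5.48. It was high on the GW9662 array and near background on the other two. On the vehicle array the spot was not well above background. Against the dimmest reading that passed on that array (-4.84), the GW9662 array was at least 5.34-fold higher. The epoxide array was 7.98-fold lower than the GW9662 array, with an error of 0.35 on the log2 scale. After normexp background correction that log2 ratio was -2.12. No fold is given for epoxides over vehicle, since the epoxide level lies under that same limit.

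The row 76 probe of Mpo did not show this difference. It carried a surrogate value on all 3 arrays, 13.0 with epoxides, 16.5 with GW9662 and 18.2 with vehicle. The probes of Mpo therefore disagree on the GW9662 array, where one reads 373 and the other is not significantly above its local background. The pixels of the row 279 spot were uneven on that array, with an SD of 0.296 of their mean against a median of 0.139 in spots of like signal. On the epoxide and vehicle arrays the same ratio was 0.156 and 0.156, against medians of 0.184 and 0.178. The part of this unevenness in the reading was not tested.

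Prtn3 encodes proteinase 3, the serine protease next to Elane in the genome. Its signal was 11.5 ± 10.5 with epoxides, 22.7 ± 13.2 with GW9662 and 46.7 ± 14.9 with vehicle. It was not well above background on any array, so no fold is given, although the vehicle reading is the highest and the epoxide reading is about as large as its error. Elane and Prtn3 are transcribed together in promyelocytes, and here Elane was well above background and Prtn3 was not.

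Camp encodes cathelicidin, whose processed peptide kills bacteria. The row 351 probe gave 87.0 ± 13.9 with epoxides, 119 ± 18.4 with GW9662 and 94.7 ± 17.9 with vehicle, or levels of -4.73, -4.08 and -4.34. It was dim but well above background on all 3 arrays, highest with GW9662 and lowest with epoxides. The log2 ratio was -0.40 ± 0.36 between epoxides and vehicle, 0.26 ± 0.35 between GW9662 and vehicle and -0.66 ± 0.32 between epoxides and GW9662. The row 506 probe gave 59.5, 61.9 and 76.2, not well above background on any array, with vehicle highest. The probes thus put the arrays in different orders. The row 351 differences from vehicle are about as large as their errors, and that between epoxides and GW9662 is larger than its error.

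Lcn2 encodes lipocalin 2, which binds bacterial siderophores and so withholds iron. Its signal was 189 ± 22.8 with epoxides, 233 ± 28.4 with GW9662 and 265 ± 31.9 with vehicle. The levels of -3.61, -3.10 and -2.86 were well above background throughout, lowest with epoxides and highest with vehicle. Epoxides over vehicle gave a log2 ratio of -0.76 ± 0.25, 1.69-fold lower, GW9662 over vehicle -0.25 ± 0.25 and epoxides over GW9662 -0.51 ± 0.25. With a trend in GC content and signal removed from each array, the first of these was -0.36.

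Ltf, which encodes the iron-binding lactoferrin, and Ngp, which encodes neutrophilic granule protein, a cystatin-like protein of specific granules, had surrogate values on all 3 arrays. Those of Ltf were 11.9 with epoxides, 15.4 with GW9662 and 17.1 with vehicle, and those of Ngp 13.4, 17.5 and 19.4. Both genes are among the most abundant transcripts of myelocytes, and neither was detected in these cultures by its only probe at the sensitivity of the array.

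S100a8 and S100a9 encode the subunits of calprotectin, the main calcium-binding protein of neutrophil cytosol. S100a8 gave 31.5 ± 10.8 with epoxides and surrogate values of 13.0 with GW9662 and 14.3 with vehicle. S100a9 gave surrogate values of 10.4 with epoxides and 13.0 with GW9662, and 30.9 ± 14.6 with vehicle. Each was significantly above its local background on 1 array and not the same one, and neither was well above background on any.

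Ratios near background run low for the epoxide array. Over all spots with surrogate values on both arrays, the median log2 difference was -0.75 between epoxides and vehicle (11581 spots), -0.20 between GW9662 and vehicle (11886 spots) and -0.55 between epoxides and GW9662 (11504 spots). The member probes with surrogates on both lay at -0.80 to -0.76 (3 probes), -0.21 to -0.20 (4 probes) and -0.59 to -0.53 (4 probes). A surrogate is set by the noise and not by the signal of the spot, so these differences carry no reading of the genes.

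Among the members well above background on both arrays, none of 3 differed by 2-fold between epoxides and vehicle, beside 2.28% of the 15812 genes measured. None of 3 did so between GW9662 and vehicle, beside 0.823% of 15795 genes. Between epoxides and GW9662 it was 1 of 4, Mpo, beside 1.16% of 16044 genes. Their median log2 ratios in the same order were -0.51, -0.06 and -0.58, beside -0.07, -0.02 and -0.06 over all measured genes. The comparisons share arrays, so these are not separate observations.

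Genes of like level give a nearer background, since dim genes ran lower on the epoxide array. For epoxides over vehicle, genes within 0.25 of the mean level of Elane had a median log2 ratio of -0.01, with quartiles of -0.16 and 0.14, and Elane at -0.51 lay below them. Genes at the level of Lcn2 had a median of -0.17 and quartiles of -0.52 and 0.10, and Lcn2 at -0.76 lay below these quartiles. Of the 820 genes at its level, 13.3% lay lower than Lcn2, against 2.67% of 935 for Elane. At the level of Camp the median was -0.54, lower than the -0.40 of Camp itself. For epoxides over GW9662, genes at the level of Mpo had a median of -0.18 and quartiles of -0.45 and 0.08, and none of these quartiles comes near the 7.98-fold of Mpo.

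**Figure D2:**
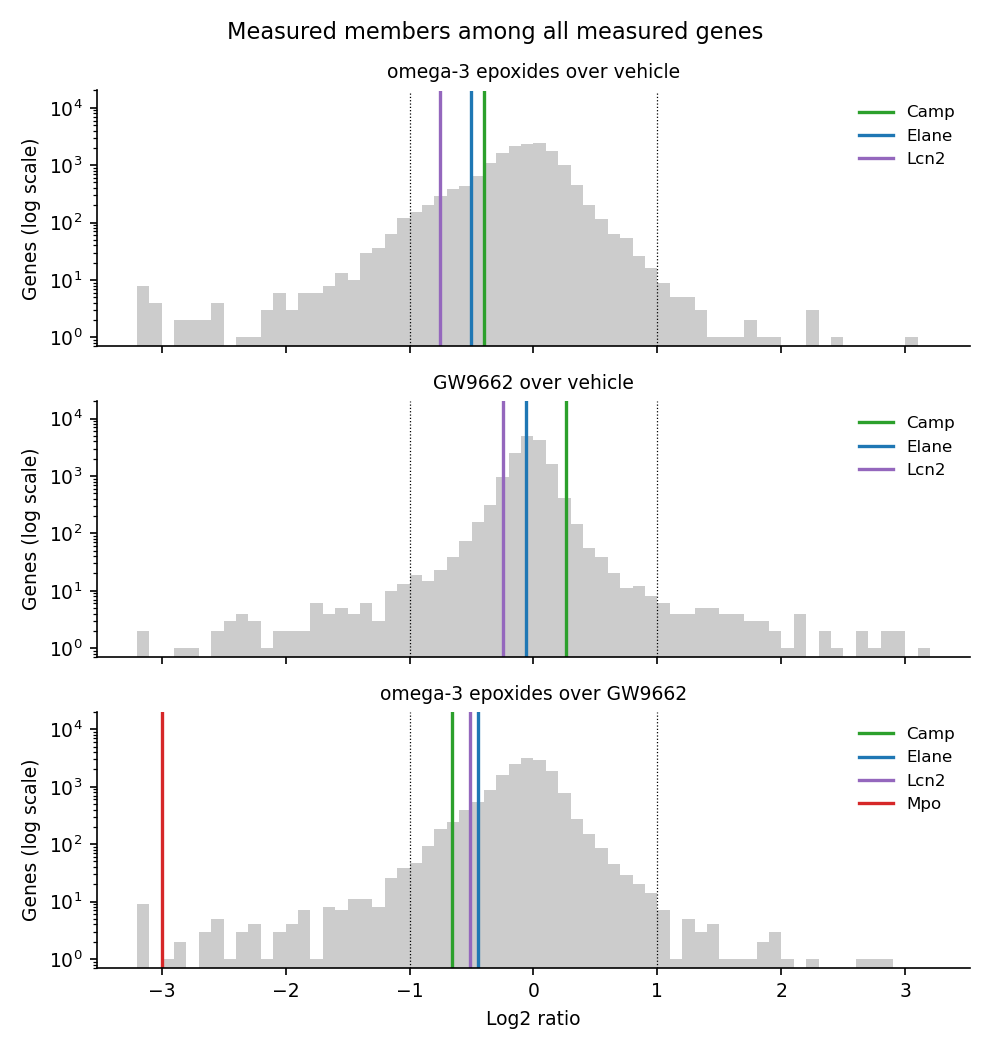
Number of genes (y axis, log scale) by log2 ratio (x axis, bins of 0.1, with ratios beyond the ends counted in the outermost bins) over all genes measured on both arrays, one panel per comparison, with a coloured line for each measured neutrophil granule gene and dotted lines at 2-fold. Camp, Elane and Lcn2 lie inside the 2-fold lines in every panel, and Mpo, 7.98-fold lower, lies far to the left in the bottom panel.

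The place of a spot on the array bears on these readings. Where a probe is printed 5 or more times, its copies can be set against their median. In rows 181 to 400 of 532, each band of 20 rows had 2.12% to 13.9% of copies 2-fold or more away, and elsewhere no band passed 1.61%. The rows hold 41.9% of spots and 6 of the 11 member probes, namely those of Elane, Prtn3, S100a8 and S100a9, the row 279 probe of Mpo and the row 351 probe of Camp. They also hold 161 of the 186 genes that differed 2-fold between epoxides and GW9662, 127 of 130 between GW9662 and vehicle, and 230 of 361 between epoxides and vehicle. Without these rows Lcn2 is the only member measured, and it did not differ by 2-fold in any comparison. Of all genes left, 1.36% did so between epoxides and vehicle, 0.0302% between GW9662 and vehicle and 0.268% between epoxides and GW9662. With shares this low, the count for 1 gene says little about the members. The part of the rows in the reading of Mpo was not tested.

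**Figure D3:**
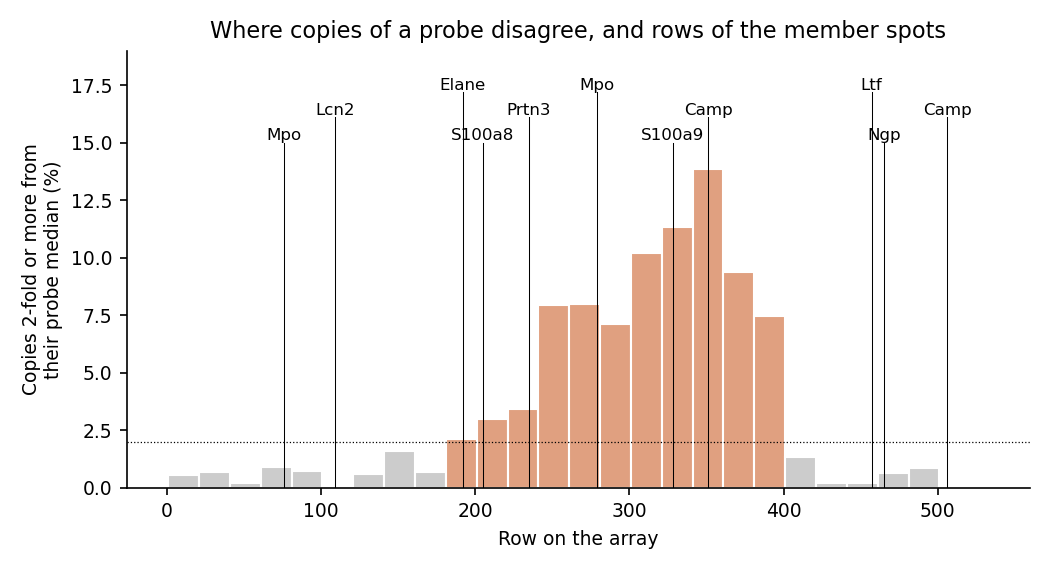
Share of copies of repeated probes at least 2-fold away from the probe's median (y axis, percent) by array row (x axis, bands of 20 rows), with vertical lines at the rows of the 11 member probes. Orange bands are at or above the dotted line at 2%, and the higher of the Mpo readings comes from a band with 7.98% of copies off.

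The spots around each member, within 5 rows and 5 columns, were read in the same way. Around the row 279 probe of Mpo, 78 spots were measured for GW9662 over vehicle, with a median log2 ratio of 0.00 and a range of -0.49 to 1.45, and 2 were 2-fold higher. For epoxides over GW9662 there were 75, with a median of -0.07, a lowest value of -2.28 and 4 that were 2-fold lower. The Mpo spot lay beyond these neighbours in both comparisons. For GW9662 over vehicle, its log2 ratio of 3.06 uses a vehicle reading that was not well above background. Neighbours had to be well above background on both arrays, so any that were bright with GW9662 alone were left out. Around Elane, 54 spots for epoxides over vehicle had a median of -0.12 and a range of -0.96 to 0.39. Around Lcn2, 58 spots had a median of -0.07 and a range of -0.95 to 0.54. Both genes lay within the range of their neighbours. Mpo was not alone in lying outside. Prtn3, S100a8 and Ngp, none of them well above background, did so as well. For epoxides over vehicle Prtn3 was at -2.29 (lowest neighbour -0.77), S100a8 at 0.86 (highest 0.53) and Ngp at -0.80 (lowest -0.62).

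**Figure D4:**
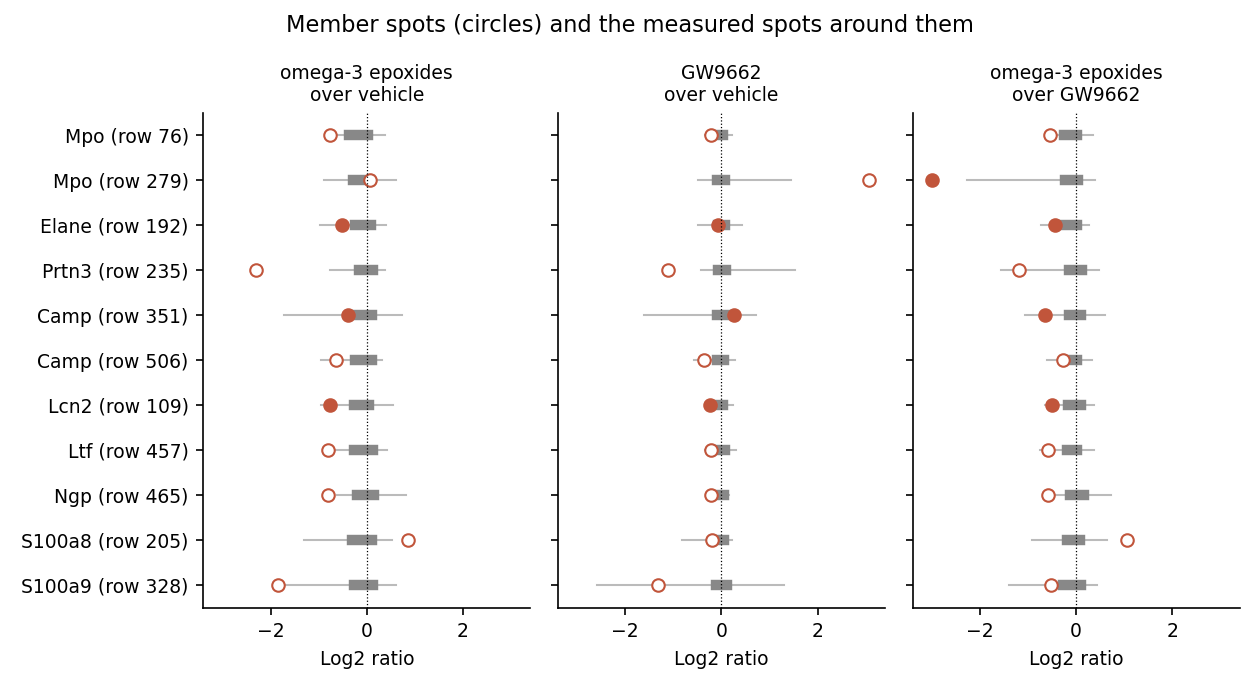
Log2 ratio of each member probe (circles, filled where well above background on both arrays) and of the measured spots within 5 rows and 5 columns of it (thick bars from quartile to quartile, thin lines from lowest to highest), one panel per comparison. The row 279 probe of Mpo lies outside its neighbours' range in the middle and right panels, while Elane and Lcn2 lie inside theirs. Prtn3 lies outside in the left and middle panels, and S100a8 and Ngp in the left and right, none of them well above background.

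The pattern of Mpo was compared with that of the 15698 genes well above background on all 3 arrays, by the Euclidean distance between levels centred on their mean. The nearest were Rsad2 at 0.245, Doc2a at 0.421, ENSMUST00000148277 at 0.445, 9430041J12Rik at 0.565 and Mdm1 at 0.566. The vehicle level of Mpo that enters these distances is not well above background, so the distances and their order are approximate. All 5 are read by spots in rows 277 to 366, inside the rows described above. Over the whole array, 282 probes were at least 4-fold brighter on the GW9662 array than on both others, of which 274 lay in these rows. For the epoxide array it was 151 probes, 104 of them in the rows, and for the vehicle array 305 and 296.

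Other genes of the neutrophil series were read from lists of the same kind. The counts below stand beside 15698 of the 31069 genes with a probe read on all 3 arrays, which were well above background on all 3 by their brightest probe. A listed gene was counted on an array if any of its probes passed there. Of 6 further azurophil granule and promyelocyte genes, Ctsg, Ms4a3 and Cst7 were well above background on all 3 arrays, and Prss57, Bpi and Lyz2 on none. Ctsg encodes cathepsin G, a protease that mast cells make too, and had levels of 2.11 with epoxides, 2.21 with GW9662 and 2.05 with vehicle. Ms4a3, a membrane protein of granulocyte and monocyte progenitors, had levels of 0.06, 0.07 and -0.13. Cst7 had levels of 5.28, 5.47 and 5.51, lowest with epoxides and highest with vehicle. Like Elane, Ctsg, Ms4a3 and Cst7 were thus well above background throughout, and like Prtn3, Bpi, Prss57 and Lyz2 were not. None of the 3 measured genes differed by 2-fold in any comparison, and their median log2 ratio for epoxides over vehicle was 0.06.

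Of 12 further genes of specific and gelatinase granules, 5 were well above background on all 3 arrays, namely Mmp8, Chil3, Slpi, Lyz1 and Anxa1. The collagenase Mmp8 was dim, with levels of -3.62 with epoxides, -3.58 with GW9662 and -3.71 with vehicle. Mmp9, the gelatinase, Cd177, Olfm4, Hp, Cybb, Mmp25 and Arg1 did not pass on any array. None of the 5 differed by 2-fold in any comparison, and the median log2 ratio for epoxides over vehicle was 0.10.

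Of 14 listed genes of the neutrophil surface and of late maturation, Ly6g was not found on the array under that name. Of the 13 found, 5 were well above background on all 3 arrays. Csf3r, the receptor for granulocyte colony-stimulating factor, had levels of 5.10 with epoxides, 5.42 with GW9662 and 5.60 with vehicle. Itgam, the alpha chain of the Mac-1 integrin, had levels of 3.12, 3.49 and 3.55. Both were lowest with epoxides and highest with vehicle, and the other 3 were not. Il1r2, a decoy receptor for interleukin 1, had levels of -1.48, -1.39 and -1.65, and Clec4d, a C-type lectin receptor, -1.59, -1.27 and -1.54, each highest with GW9662. Stfa2l1, a stefin-like gene, had -3.46, -3.52 and -3.44, which is lowest with GW9662. The chemokine receptors Cxcr1 and Cxcr2, the formyl peptide receptors Fpr1 and Fpr2, and Padi4, Retnlg and Mrgpra2b, which mark mature neutrophils, were not well above background on any array. The median log2 ratio of the 5 for epoxides over vehicle was -0.05, and none differed by 2-fold. The summed level of this list, in units of the 75th percentile, was 43.8 with epoxides, 55.1 with GW9662 and 61.2 with vehicle, nearly all of it from Csf3r and Itgam.

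Of 8 transcription factors of granulocyte development, 6 were well above background on all 3 arrays. Gfi1, a repressor needed for granulocyte maturation, had levels of 0.54 with epoxides, 0.08 with GW9662 and 0.27 with vehicle. Runx1 and Spi1 went the other way and were lowest with epoxides. Their log2 ratios for epoxides over vehicle were -0.61 and -0.35, against 0.27 for Gfi1, and they were the only 2 of the 6 below 0. The median over the 6 factors was 0.06 for that comparison, and no factor reached 2-fold in any comparison. Cebpe, which drives specific granule genes, and Cebpa, which opens the granulocyte programme, were not well above background on any array.

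Markers of other cells that a marrow culture could hold were counted too. Of the 31069 genes with a probe read on all 3 arrays, 15698 were well above background on all 3 by their brightest probe. These lists are short, and no count, near that share or far from it, is read as showing that such cells were present. All 3 basophil genes (Mcpt8, Prss34 and Cd200r3) were well above background on all 3 arrays, as were 7 of 11 monocyte and macrophage genes, 3 of 6 dendritic cell genes, 3 of 6 megakaryocyte genes, 3 of 7 erythroid genes and 2 of 9 eosinophil genes. Ly6c2, also listed for monocytes, was not found under that name. Of the lymphoid genes, 1 of 6 B cell genes and 2 of 7 T and NK cell genes passed, and no stromal gene of 6 did. The eosinophil granule genes Prg2, Prg3 and Epx were not well above background on any array. The summed level of the monocyte and macrophage list was 18.6 with epoxides, 15.8 with GW9662 and 17.5 with vehicle. Most of it came from Cx3cr1 alone, with levels of 4.07, 3.81 and 3.97 in the same order. The summed level of the mast cell list was 946 with epoxides, 1078 with GW9662 and 1173 with vehicle. The part of any such cells in the Elane and Lcn2 readings was not tested.

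**Figure D5:**
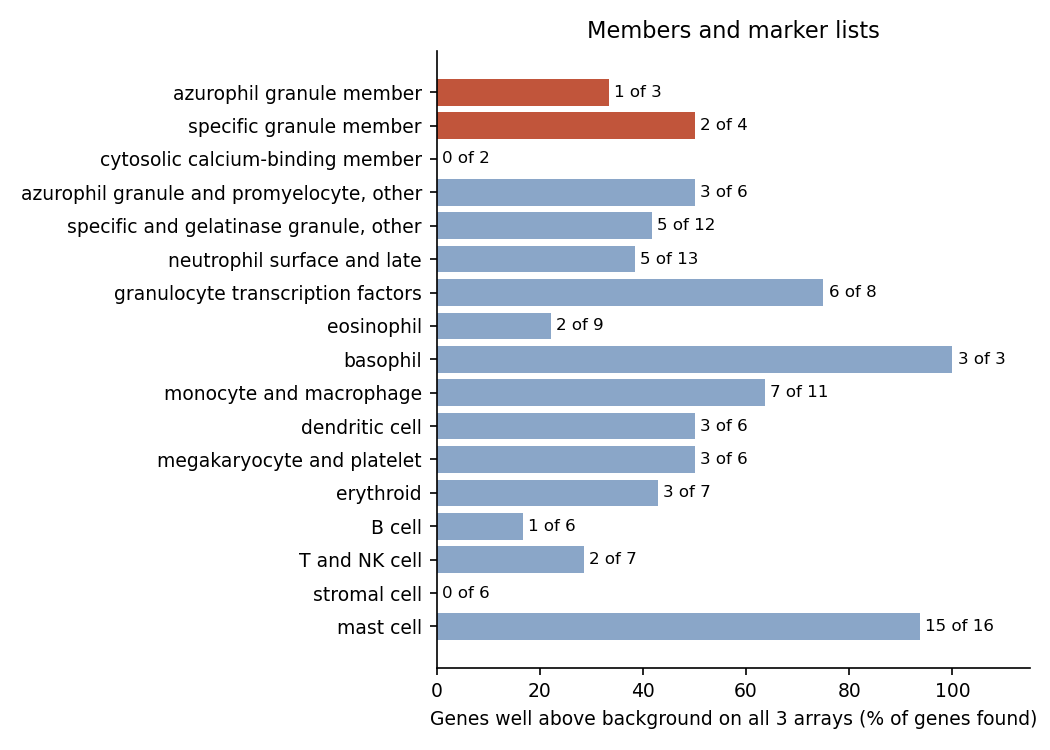
Share of the genes found in each list that were well above background on all 3 arrays (x axis, percent), with the neutrophil granule genes in red and the other lists in blue, and the number of genes beside each bar. Of the 9 neutrophil granule genes, 3 passed, against 15 of 16 mast cell genes and none of 6 stromal genes. Over the 31069 genes with a probe read on all 3 arrays, 15698 passed by their brightest probe.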

How the data were processed

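The authors deposited scanner output of Agilent Feature Extraction 11.5.1.1, per the submitters' processing notes and the file headers. Its processed signal is an intensity, background-subtracted and detrended within the array, per the file headers. The p-value of each spot against local background is deposited as the software gave it and was used only to describe spots. All 3 arrays lay on 1 slide. The authors' deposited value table holds a linear ratio, equal to the processed intensity over the array's 75th percentile within a tolerance of 0.001. Column medians are 0.0500 for epoxides, 0.0413 for GW9662 and 0.0524 for vehicle. Scale and centring are thus settled, and which treated column is which is not.

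Here log2 intensity was reduced by log2 of that percentile over non-control spots. Spots with outlier marks (221, 251 and 230 with epoxides, GW9662 and vehicle) were left out, and none was saturated. A gene was read by its probe of highest mean level, and measured where well above background on both arrays. Called means at least 2-fold. For a bound, the dim array was set at its own level or at its lowest level well above background, whichever was greater. Among 219 repeated probes, the technical SD of a log2 ratio was 0.0821 between epoxides and vehicle, 0.0818 between GW9662 and vehicle and 0.0786 between epoxides and GW9662. Of 39429 probes, 28330 were named through RefSeq (GRCm38.p6). All members are named in every comparison, and of other lists up to 4 measured genes farthest from 0 were eligible, with others as presence or absence. Members and lists were chosen with earlier results of these data known. The alternatives used limma 3.58.1 in R 4.3.3. The number of arrays limits the precision.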

Additional observations from a re-analysis of the deposited data

How the results depend on the processing

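Every measured member changed sign for epoxides over GW9662 with the authors' value table, which exchanges the treated arrays. The log2 ratios were then 3.00 for Mpo, 0.44 for Elane, 0.66 for Camp and 0.51 for Lcn2. Mpo lay between -2.997 and -2.12 in the other 9 alternatives that measured it. With the value table, epoxides over vehicle gave -0.06 for Elane and -0.25 for Lcn2, against -0.51 and -0.76 as reported. The member median for epoxides over GW9662 was -0.40 with normexp, -0.40 with quantile normalization, -0.44 with cyclic loess, 0.58 with the value table, -0.36 with a quadratic trend in GC content and in brightness taken out, and -0.24 without rows 181 to 400 and with the trend removed. For epoxides over vehicle it was -0.064 with the value table, -0.76 with no filter on dim probes, -0.76 without the rows, -0.36 with the trend removed and -0.37 with both. For GW9662 over vehicle it was -0.51 with the value table, -0.21 with no filter and -0.25 without the rows. Without the rows it rests on Lcn2 alone. Members 2-fold apart were 2, 3 and 3 of 9 with no filter (epoxides over vehicle, GW9662 over vehicle, epoxides over GW9662), beside 9.51%, 6.59% and 7.80% of all genes. They were 1, 2 and 2 of 5 with spots significantly above local background, chosen after seeing the data, beside 7.41%, 4.14% and 5.20%. At 1.5-fold they were 1 of 3 for epoxides over vehicle, beside 10.2%, and 2 of 4 for epoxides over GW9662, beside 5.73%. At 2-fold without the rows, they were 0 of 1 for epoxides over GW9662, beside 0.268%. With the trend removed as well, they were again 0 of 1, beside 0.219%. Over all genes, calls for epoxides over vehicle numbered 361, against 143 with normexp, 203 with quantile, 239 with loess, 174 with the trend removed, 135 without the rows and 44 with both. The higher share of these calls was 9.42%, against 31.0% with quantile, 23.0% with loess and 34.5% with the trend removed. For epoxides over GW9662 it was 17.7%, against 39.2%, 33.6% and 39.3%, and calls fell to 27 without the rows. For GW9662 over vehicle calls were 130, against 3 without the rows. Causes were not tested. Camp for epoxides over vehicle, never 2-fold apart, was 0.01 with the trend removed. No paired analysis was possible because each condition has 1 array. Signal over background limits 6 of the 9 genes, which lack a reading well above background on at least 1 array.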

Other observations

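Some markers of cells other than neutrophils were also bright on 1 or 2 arrays only, named here after their values were seen. Cd79a, a signalling chain of the B cell receptor, had levels of -5.66 with epoxides, -1.77 with GW9662 and -6.00 with vehicle on row 312, and was well above background with GW9662 alone. Ncr1, an activating receptor of NK cells, had levels of -7.82 with epoxides, -2.38 with GW9662 and -2.87 with vehicle on row 282. Vpreb1, part of the surrogate light chain of B cell precursors, was even across arrays on row 107, with levels of -2.10, -2.26 and -2.12 in the same order.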
